A study of Mus musculus with 10 samples.

Results

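10 imprinted genes and imprinted noncoding RNAs were followed through P21 mouse testis with and without MOV10: H19, Igf2, Dlk1, Meg3, Rian, Mirg, Plagl1, Peg3, Mest and Cdkn1c. They were chosen by name, and all 10 were found among the 55421 Ensembl genes of the count files. The study asked what the RNA helicase MOV10 does to transcripts in mouse testis, and it compared testis RNA of Mov10-/- and wild type mice and sequenced the RNA cross-linked to MOV10. RNA-seq was made from 3 pairs of Mov10-/- testes (replicates 2, 3 and 4) and 3 pairs of wild type testes (replicates 1, 2 and 3), 1 library per pair, all at postnatal day 21. CLIP-seq, in which ultraviolet light links a protein to the RNA it touches and an antibody against that protein then recovers both, was made from wild type testes of the same age in 4 libraries (replicates 1, 2, 3 and 5). The Mov10-/- mice lacked a floxed run of exons that codes for a helicase domain, deleted in all tissues by Cre under the β-actin promoter (Actb-Cre). They came from crosses of heterozygous parents on a background mixed from several strains, and part of the knockout embryos died before birth, so that the testes are those of survivors. The kit selects polyadenylated RNA, so mature miRNAs and most snoRNAs were not measured.

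Imprinted genes are read from only the maternal or only the paternal copy, because methylation laid down in the egg or the sperm differs at a control region. H19, Cdkn1c, Meg3, Rian and Mirg are known to be read from the maternal copy, and Igf2, Dlk1, Plagl1, Peg3 and Mest from the paternal copy. Many of them act on growth before birth and fall after it: Igf2 encodes a growth factor, Cdkn1c an inhibitor of cyclin-dependent kinases, and Plagl1 a zinc finger factor. The methylation that silences the paternal H19 and Meg3 is set in the male germ line before birth. The count files do not tell the parental copies apart, so each value is the sum of both.

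Several members carry miRNAs, the small RNAs that pair with target transcripts through their seed. Mature sequences from the 4 hosts that were tested are shown, because they are the products of these transcripts that the libraries do not count. Sequences are from RefSeq (GRCm38.p6), printed 5′ to 3′, with the seed (bases 2 to 8) in capitals. H19 carries miR-675 (chr7, minus strand), Igf2 carries miR-483 (chr7, minus strand) and Mest carries miR-335 (chr6, plus strand), each with 1 hairpin. Mirg (chr12, plus strand) carries 14 hairpins with 26 mature sequences and 25 different seeds. The single seed that occurs more than once there is that of miR-453 and miR-496a-5p, and miR-134-5p, miR-410-3p and miR-3072-5p are printed beside them as examples of other seeds.
mmu-miR-675-5p: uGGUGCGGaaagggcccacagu
mmu-miR-675-3p: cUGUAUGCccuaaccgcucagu
mmu-miR-483-5p: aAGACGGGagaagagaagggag
mmu-miR-483-3p: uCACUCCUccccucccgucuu
mmu-miR-335-5p: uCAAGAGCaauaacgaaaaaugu
mmu-miR-335-3p: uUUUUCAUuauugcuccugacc
mmu-miR-453: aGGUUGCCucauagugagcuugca
mmu-miR-496a-5p: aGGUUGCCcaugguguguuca
mmu-miR-134-5p: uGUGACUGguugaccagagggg
mmu-miR-410-3p: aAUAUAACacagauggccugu
mmu-miR-3072-5p: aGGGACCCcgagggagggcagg

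RNA-seq libraries had 5083407 to 9230540 reads counted on genes, and levels are given as CPM, the read count of a gene scaled to the library's total on genes after TMM correction. The targeted gene fell: Mov10 was at 29.0, 26.6 and 26.7 CPM in Mov10-/- replicates 2, 3 and 4 and at 114, 96.4 and 119 CPM in wild type replicates 1, 2 and 3 (log2 fold change -1.999, SE 0.12; adjusted p = 0.00552 in the quasi-likelihood test of edgeR, adjusted by Benjamini-Hochberg). It was the only gene called of 20240 tested, so that 0.00494% were called lower and 0% higher, where called means that a gene changed more than 2-fold at an adjusted p under 0.05. At an unadjusted p under 0.05, 11.9% of genes were lower and 5.57% higher. The count depended on the test: DESeq2 called 988 genes lower and 51 higher, the edgeR exact test 1031 and 70 and its likelihood ratio test 1104 and 83. The study, using edgeR at these cutoffs without naming the test, reported many more protein-coding genes changed, most of them lower in Mov10-/-. Without Mov10-/- replicate 3 or 4 the call of Mov10 was lost (adjusted p = 0.106 and 0.143 with edgeR), at log2 fold changes of -1.98 in both. Among the 30256 genes with at least 1000 exon bases, at most 1 gene per library had more than 1 read per exon base, and Actb had 997 to 1254 reads while library totals differed 1.82-fold. Counts of the most abundant transcripts therefore grew less than the depth did. The highest member stood at 0.0485 to 0.137 reads per base. Wild type replicate 2 stood apart by its markers of spermatids, which summed to 811 CPM there against 189 and 311 CPM in the other wild type libraries and 48.9 to 170 CPM in the Mov10-/- libraries. In Mov10-/- replicate 3, 57.2% of reads were not aligned, against 26.5% to 35.9% in the others. The labels give no batch.

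7 of the 10 members were expressed high enough to be tested, and none of the 7 was called. 6 of them had a log2 fold change above 0 (Mov10-/- minus wild type), as did 53.8% of all genes tested, and the median was 0.42 for the members against 0.03 for all genes. For H19 and Cdkn1c every Mov10-/- library lay above every wild type library, which is 2 of 7 members, where 11.9% of all genes tested lay so and 14.1% lay entirely below. Since RNA came from whole testes, fewer cells of a type and less RNA per cell cannot be told apart in any of these values. The labels name pairs of testes but not litters, and p-values measure the spread between these pairs.

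**Figure D1:**
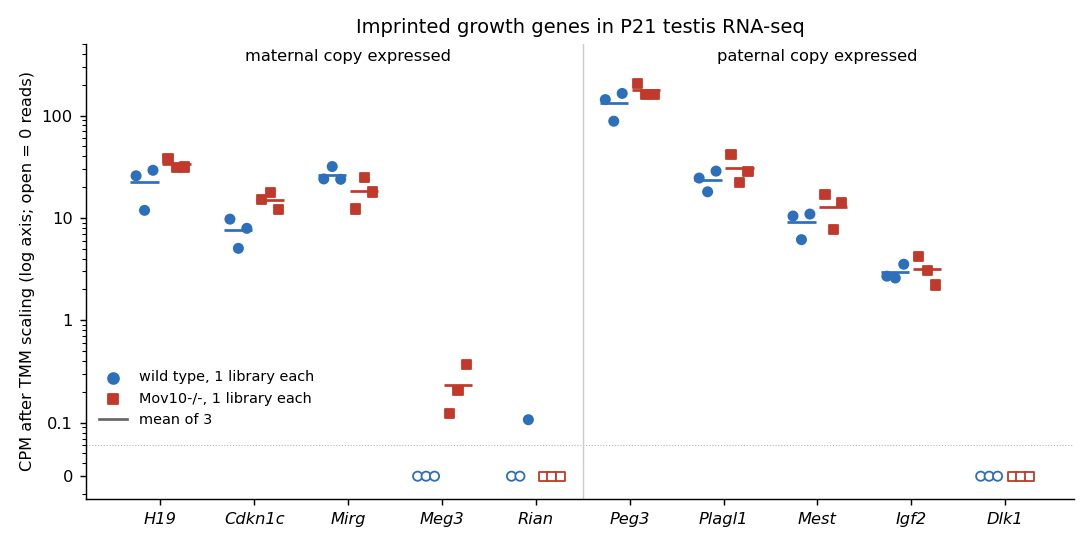
Level of each of the 10 members in each RNA-seq library, in CPM on a log axis, with wild type as blue circles, Mov10-/- as red squares, bars for the mean of 3 libraries and open symbols for 0 reads; maternally and paternally expressed genes are set apart. Dlk1 has no read in any library, Meg3 and Rian have at most 3, and only H19 and Cdkn1c of the tested members have all Mov10-/- libraries above all wild type libraries.

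H19 is a long noncoding RNA of the Igf2 domain (chr7:142575529-142578143, mm10, minus strand). It was at 37.9, 31.1 and 31.5 CPM in Mov10-/- replicates 2, 3 and 4 and at 25.8, 11.9 and 29.2 CPM in wild type replicates 1, 2 and 3. The groups did not overlap, but the gap was small: the lowest Mov10-/- library exceeded wild type replicate 3 by less than wild type replicates differed among themselves. The log2 fold change was 0.59 (SE 0.32, adjusted p = 0.386 with edgeR). It dropped to 0.29 when wild type replicate 2 was left out. In wild type, H19 had 9.97 ± 4.11 CPM per kb of exon that no other annotated gene shares (SD, n = 3).

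Igf2 (chr7:142650766-142666816, minus strand), the growth factor whose gene lies beside H19, was low. It was at 4.199, 3.07 and 2.21 CPM in Mov10-/- replicates 2, 3 and 4 and at 2.70, 2.59 and 3.53 CPM in wild type replicates 1, 2 and 3. The libraries overlapped, and the log2 fold change was 0.10 (SE 0.36, adjusted p = 0.899 with edgeR). Of its exon bases, 64.5% lie under another annotated gene, mostly Gm49394 on the same strand, where the counting leaves out reads that fall on both if it ignores the strand or the genes share it. Without the strand, the values of Igf2 come from the other 2029 exon bases, and they rest on 15 to 34 reads per library. Igf2os, annotated on the opposite strand, had a log2 fold change of -0.66 (SE 0.37, adjusted p = 0.395 with edgeR). Whether the counting used the strand is not stated, and if it did, the few exon bases that Igf2 shares with Igf2os count as well.

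Cdkn1c (chr7:143458339-143461050, minus strand), which encodes the cell cycle inhibitor p57, had the largest difference of the 7 tested members. Its level was 15.2, 17.8 and 12.2 CPM in Mov10-/- replicates 2, 3 and 4, against 9.73, 5.04 and 7.91 CPM in wild type replicates 1, 2 and 3. All Mov10-/- libraries were above all wild type libraries. The log2 fold change was 0.99 (SE 0.32), with an unadjusted p of 0.0154 in edgeR's model over all genes and an adjusted p of 0.188. It fell short of the threshold under each alternative run, with adjusted p between 0.0681 (DESeq2) and 0.655 (replicate block). An antisense gene, Gm44732, covers 625 of its 2039 exon bases; that gene itself had at most 4 reads in a library.

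Plagl1, Peg3 and Mest are paternally expressed genes on 3 chromosomes. Peg3 (chr7:6703892-6730431, minus strand), a large zinc finger protein, had the most reads of all members. Its levels were 207, 159 and 162 CPM in Mov10-/- replicates 2, 3 and 4 and 143, 88.1 and 164 CPM in wild type replicates 1, 2 and 3. Here wild type replicate 3 lay above a pair of Mov10-/- libraries, so the groups overlapped, with a log2 fold change of 0.42 (SE 0.22, adjusted p = 0.380 with edgeR). Plagl1 (chr10:13060504-13131694, plus strand) was at 41.9, 22.1 and 28.5 CPM in Mov10-/- against 24.5, 17.99 and 28.7 CPM in wild type libraries in the same order. Its log2 fold change was 0.38 (SE 0.28, adjusted p = 0.521 with edgeR), and it too overlapped. Mest (chr6:30723547-30748465, plus strand), a protein of the alpha/beta hydrolase family, was at 16.8, 7.77 and 14.1 CPM in Mov10-/- libraries, against 10.4, 6.13 and 10.9 CPM in wild type ones. The Mest libraries overlapped through Mov10-/- replicate 3, and the log2 fold change was 0.50 (SE 0.37, adjusted p = 0.521 with edgeR). For Peg3, Plagl1 and Mest alike, the highest of the 6 libraries was Mov10-/- replicate 2 and the lowest was wild type replicate 2. Without the former, the log2 fold changes were 0.29, 0.10 and 0.28, and without the latter 0.20, 0.23 and 0.29.

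Mirg (chr12:109729764-109749460, plus strand), the miRNA-bearing RNA at the far end of the maternally expressed cluster, went the other way. It was at 12.2, 24.8 and 17.9 CPM in Mov10-/- replicates 2, 3 and 4 and at 24.03, 31.8 and 23.8 CPM in wild type replicates 1, 2 and 3. The groups overlapped because Mov10-/- replicate 3 reached the wild type range, and the log2 fold change was -0.54 (SE 0.29, adjusted p = 0.369 with edgeR). Its log2 fold change was -0.32 without Mov10-/- replicate 2 and -0.81 without replicate 3. With the latter left out, Mirg lay lower and Mest higher in every Mov10-/- library, beside H19 and Cdkn1c. Of all genes, 19.2% were then entirely higher and 21.9% entirely lower. With wild type replicate 3 left out, Peg3 joined H19 and Cdkn1c as entirely higher, where 18.9% of all genes were. Leaving out any of the other 4 libraries added no member.

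**Figure D2:**
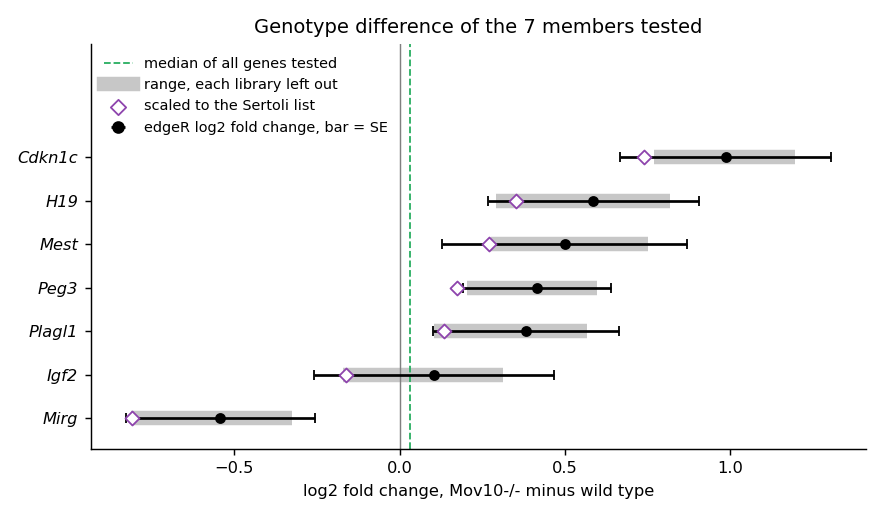
Log2 fold change (Mov10-/- minus wild type) of the 7 members tested, as black points with the standard error from edgeR, grey bars for the range when each of the 6 libraries is left out, open diamonds for scaling to the Sertoli list and a green dashed line for the median of all genes tested (0.03). 6 points lie above 0 and Mirg at -0.54 lies below; with the Sertoli scaling, Igf2 moves to -0.16 and Cdkn1c to 0.74.

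Mirg and 1 other noncoding RNA held most reads of their domain. The imprinted domain from Dlk1 to Dio3 on chromosome 12 had 116 genes in the count files, and 18 of these had a read in any of the 6 RNA-seq libraries. Mirg held 55.0% of the 1868 reads, and together with 4930511J24Rik, a shorter long noncoding RNA between Mirg and Dio3, it held 92.9%. The head of the maternally expressed cluster was close to empty. Meg3 (chr12:109541001-109571726, plus strand), a long noncoding RNA, had 1, 1 and 3 reads in Mov10-/- replicates 2, 3 and 4 and 0 in each wild type library. Rian (chr12:109603940-109661716, plus strand), which bears a cluster of C/D box snoRNAs, had 1 read in wild type replicate 3 and 0 in the other 5 libraries. Dlk1 (chr12:109452823-109463336, plus strand), a transmembrane protein related to Notch ligands and known from preadipocytes, had no read among the 46181626 counted. A count of 0 allows up to 3 reads, which is 0.325 to 0.590 RPM (the same unit as CPM, before TMM scaling) depending on the library, and covers counting error only. These 3 members were not tested and no fold is given.

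Counts at 0 in these files are not by themselves proof that a transcript is missing from the testis, since Rhox5 and Rhox8, known Sertoli cell genes, had 1 read and 0 reads. Dio3, which encodes a thyroid hormone deiodinase at the far end of the domain, had 46 reads over the 6 libraries and a log2 fold change of 0.29 (SE 0.50, adjusted p = 0.787 with edgeR). 4930511J24Rik had 11.4, 13.5 and 17.1 CPM in Mov10-/- and 16.5, 18.3 and 14.6 CPM in wild type libraries, which overlapped (log2 fold change -0.24, SE 0.24, adjusted p = 0.646 with edgeR). Of the 67 miRNA genes annotated in the domain, 5 had a read, 13 reads in all, with at most 5 on 1 gene (Mir3072, inside Mirg). None of the 23 snoRNA genes had one. The miRNA genes inside H19, Igf2 and Mest (Mir675, Mir483 and Mir335) had 0 reads in all RNA-seq and CLIP-seq libraries. These counts are of reads that were not shared with the host RNA and say nothing of the mature miRNAs.

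**Figure D3:**
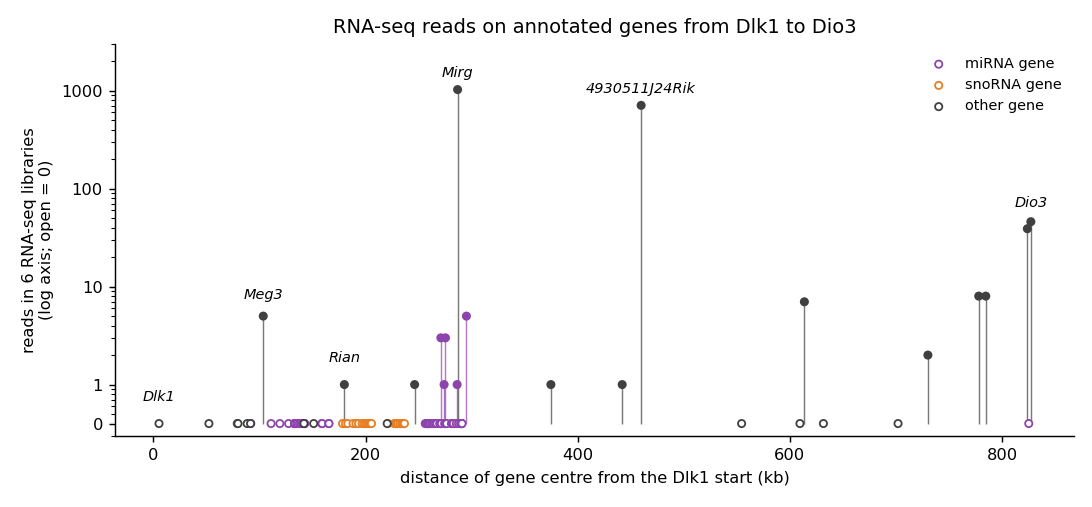
Reads summed over the 6 RNA-seq libraries for each annotated gene from Dlk1 to Dio3 (log axis, open symbols for 0), against the distance of the gene's centre from the Dlk1 start in kb. Mirg (1027 reads) and 4930511J24Rik (709 reads) stand above all other genes, while Dlk1 has 0, Meg3 5 and Rian 1.

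Levels of different genes were compared per kb of unshared exon in wild type libraries. H19, at 9.97 ± 4.11 CPM per kb, and Peg3, at 9.90 ± 2.96 CPM per kb, headed the order and did not differ beyond their spread (SD, n = 3 here and below). Cdkn1c followed with 5.35 ± 1.67 CPM per kb, and its highest library overlapped the lowest of Peg3. Mirg was at 3.83 ± 0.65, Plagl1 at 3.05 ± 0.69 and Mest at 3.02 ± 0.87 CPM per kb, and each overlapped its neighbour. Igf2, at 1.45 ± 0.25 CPM per kb, lay below all 3 Mest libraries. Meg3, Rian and Dlk1 closed the order near 0. The kit (TruSeq Stranded mRNA) keeps the strand, but the order assumes counting without the strand. If the counting used it, a case added after the values were seen, Cdkn1c would be at 3.71 ± 1.16 CPM per kb, beside Mirg, and Igf2 (1.38 ± 0.24) would overlap Mest (2.32 ± 0.67). Igf2 was below H19 in every wild type library, with 1.28 to 1.74 CPM per kb against 5.31 to 13.1.

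Summed marker lists of testis cell types also differed between the genotypes. The Sertoli list summed to 1293 to 1491 CPM in Mov10-/- libraries and 1092 to 1259 CPM in wild type, with 14 of its 15 tested genes above 0 on the log2 fold change scale, and Rhox8 at 0 reads. The interstitial fibroblast list summed to 1121 to 1403 CPM against 687 to 1022 CPM, with 11 of 11 genes above 0. Lists of peritubular myoid cells, endothelium, adipocytes, mesothelium and skeletal muscle were also higher in every Mov10-/- library, while those of Leydig cells, fetal Leydig cells, macrophages, spermatocytes, spermatogonia and epididymis overlapped. The adipocyte list was at 164 to 213 CPM against 94.3 to 100 CPM with 12 of 12 genes above 0, the mesothelium list at 44.4 to 96.9 CPM against 28.0 to 31.6 CPM with 5 of 5. The spermatid list was at 48.9 to 170 CPM against 189 to 811 CPM, with 0 of 11 tested genes above 0. The part of cell makeup in the members' differences was not tested.

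The order of the single libraries was looked at for 4 members and 4 lists, after the values were seen. H19 ranked the 6 libraries in the same order as both the interstitial fibroblast list and the adipocyte list. Wild type replicate 2 was at the bottom and Mov10-/- replicate 2 at the top, so the order singles out no cell type. Cdkn1c ranked them in the same order as the Sertoli list, with Mov10-/- replicate 3 highest. Mirg was highest in wild type replicate 2 and lowest in Mov10-/- replicates 2 and 4, as the spermatid list was, but Mov10-/- replicate 3 was second highest for Mirg and below all wild type libraries for the list. The order for Peg3 matched none of the lists. The ratio of Mirg to H19 was 0.322, 0.796 and 0.570 in Mov10-/- and 0.932, 2.68 and 0.817 in wild type libraries, which did not overlap. Of 3 such ratios, looked at after the values were seen, those to Peg3 (0.059, 0.156 and 0.111 against 0.168, 0.361 and 0.145) and to Plagl1 (0.292, 1.12 and 0.629 against 0.981, 1.77 and 0.832) overlapped. With libraries scaled to the summed Sertoli list in place of all genes, the log2 fold change of H19 was 0.35, of Cdkn1c 0.74, of Peg3 0.17, of Plagl1 0.13, of Mest 0.27, of Igf2 -0.16 and of Mirg -0.81, and no member was called.

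**Figure D4:**
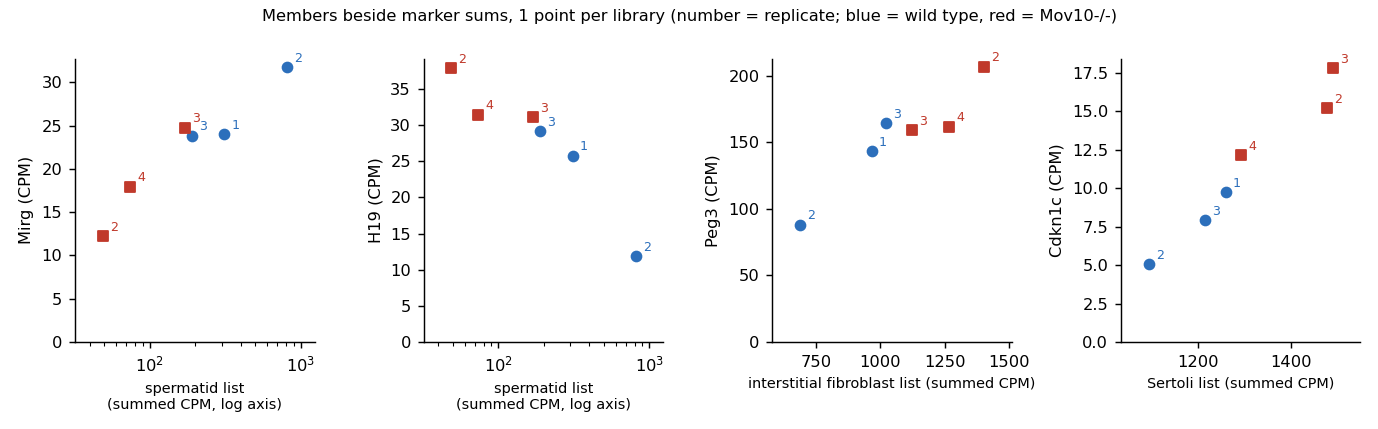
CPM of Mirg, H19, Peg3 and Cdkn1c in each RNA-seq library against the summed CPM of a marker list (spermatid lists on a log axis), 1 point per library with its replicate number, wild type in blue and Mov10-/- in red. Mirg is lowest, at 12.2 CPM, where the spermatid list is lowest, and Cdkn1c is highest, at 17.8 CPM, where the Sertoli list is highest.

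Other genes known to be imprinted in mouse did not move as one. Of 56 genes on this list 46 were tested and none was called, where 0.00494% of all genes were called lower. In 10 of them every Mov10-/- library lay above every wild type library and in 6 every one lay below (21.7% and 13.04%, against 11.9% and 14.1% of all genes), with a median log2 fold change of 0.15. The 4 largest such differences were those of Atp10a, Slc22a18, Kcnq1 and Airn. Atp10a, a phospholipid flippase, was at 38.0, 41.7 and 32.4 CPM in Mov10-/- and 80.1, 153 and 60.3 CPM in wild type libraries (log2 fold change -1.39, SE 0.32, adjusted p = 0.150 with edgeR). Slc22a18, a transporter gene of the Cdkn1c domain, was at 6.17, 14.3 and 12.5 CPM against 21.8, 35.7 and 22.2 CPM (-1.28, SE 0.36, adjusted p = 0.161). Kcnq1, a potassium channel gene of the same domain, averaged 1.56 ± 0.47 CPM without MOV10 and 3.62 ± 1.404 CPM with it (SD, n = 3; log2 fold change -1.18, SE 0.42, adjusted p = 0.216). Airn, the long noncoding RNA that silences Igf2r on the paternal copy, was at 3.33, 2.86 and 3.19 CPM against 1.64, 0.954 and 2.14 CPM (0.97, SE 0.38, adjusted p = 0.248). Cdkn1c lay in a domain whose tested genes differed in sign: Kcnq1ot1, the noncoding RNA at its control region, had a log2 fold change of 0.27 (SE 0.25, adjusted p = 0.612).

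The insulin-like growth factor pathway, in which Igf2 is a ligand, was described from a list of 23 genes, of which 21 were tested and none was called. 16 of the 21 had a log2 fold change above 0, as did 53.8% of all genes, and the median was 0.30. In 7 of them (33.3%) every Mov10-/- library lay above every wild type library, and in none below, against 11.9% and 14.1% of all genes. Igf1, the other ligand, averaged 107 ± 46.6 CPM without MOV10 and 74.7 ± 26.5 CPM with it (SD, n = 3; log2 fold change 0.53, SE 0.36, adjusted p = 0.485 with edgeR). Igf1r, the signalling receptor, had a log2 fold change of 0.37 (SE 0.22, adjusted p = 0.437). Igf2r, which takes Igf2 up for breakdown and is itself imprinted and therefore on both lists, had 0.30 (SE 0.16, adjusted p = 0.374). The binding proteins, which hold the growth factors outside the cell, made up the 4 largest differences among genes whose libraries did not overlap. Igfbp5 was at 56.4, 20.9 and 22.9 CPM in Mov10-/- replicates 2, 3 and 4, against 6.45, 15.3 and 19.99 CPM in the wild type libraries (log2 fold change 1.27, SE 0.51, adjusted p = 0.255). Igfbp3 was at 60.3, 28.8 and 35.0 CPM against 26.6, 12.4 and 23.4 CPM (0.99, SE 0.36, adjusted p = 0.220). For Igfbp6 the log2 fold change was 0.42 (SE 0.16, adjusted p = 0.225) and for Igfbp7 0.39 (SE 0.14, adjusted p = 0.221). Left-out libraries gave log2 fold changes of 0.65 (without Mov10-/- replicate 2) to 1.62 for Igfbp5.

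Genes that set or keep imprints, 20 on the list, gave 19 tests and no call, with a median log2 fold change of 0.10. In 1 of the 19 every Mov10-/- library lay above wild type and in 1 below (5.26% each, against 11.9% and 14.1% of all genes), and the other 17 overlapped. Dnmt3l, the cofactor of de novo DNA methylation in germ cells, was at 2.10, 2.25 and 2.58 CPM in Mov10-/- and 10.3, 15.3 and 3.53 CPM in wild type libraries (log2 fold change -2.06, SE 0.53, adjusted p = 0.150 with edgeR). Ctcfl, the testis paralog of the boundary factor Ctcf, was at 25.1, 26.6 and 27.5 CPM against 16.5, 12.95 and 21.9 CPM (0.62, SE 0.23, adjusted p = 0.235). Dnmt1, which copies methylation after replication, had a log2 fold change of 0.18 (SE 0.11, adjusted p = 0.442), and Zfp57, a zinc finger protein that guards methylated control regions, had -1.02 (SE 0.35, adjusted p = 0.206) with overlapping libraries. Dnmt3l, Atp10a and Slc22a18 passed the threshold with DESeq2, the exact test and the likelihood ratio test of edgeR, and no member did.

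**Figure D5:**
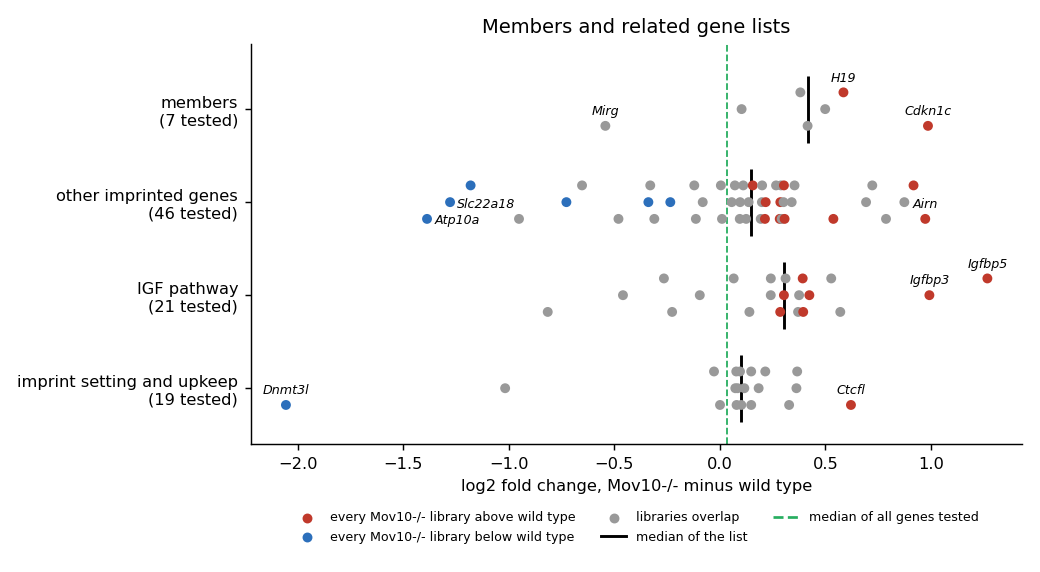
Log2 fold change (Mov10-/- minus wild type) of each tested member and of each tested gene of the 3 related lists, with red for genes whose Mov10-/- libraries all lie above wild type, blue for all below, grey for overlap, a black bar for the median of the list and a green dashed line for the median of all genes tested. Medians are 0.42 for the members, 0.15 for other imprinted genes, 0.30 for the IGF pathway and 0.10 for imprint setting and upkeep.

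MOV10 CLIP-seq held almost no reads on the members. The 4 libraries had 3404 to 4934 reads counted on genes, and 99.5% to 99.6% of their reads were not aligned. The study reported many transcripts as bound from its CLIP-seq, so the few reads describe these count files. Between replicates 1, 2 and 3 the difference was smaller than sampling noise allows (chi-square per degree of freedom 0.219 to 0.237, against 1.63 to 1.93 for pairs with replicate 5), so their mean was counted as 1 library, which leaves 2 separate ones. Over all 10 members and all 4 libraries there was 1 read, on Peg3 in replicate 5. Of the 7 members above 1 RPM in every wild type RNA-seq library, 1 (14.3%) had a CLIP-seq read, where 19.1% of 18779 such genes had one. None of the 116 genes of the Dlk1 to Dio3 domain had a CLIP-seq read. Only 18 of them had a read in RNA-seq, so this says little about binding.

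No member reached 10 reads in each assay, summed over all its libraries. This was the minimum for a binding ratio (RPM in CLIP-seq divided by RPM in RNA-seq of wild type testes). Of the 268 genes that reached it, 39.9% had a ratio over 10. At this depth, binding of the members could be limited only loosely. For Peg3 the ratio was 0.77, with an exact 95% counting interval of 0.02 to 4.94, so that a ratio over 10 lay outside it. For H19, Mirg and Plagl1, with 0 reads, 3 reads would have given ratios of 15.7, 13.3 and 14.8, and for Mest, Cdkn1c and Igf2 38.3, 46.3 and 120. At 0 reads the data therefore allow ratios over 10 for these 6 genes. Intervals and limits cover counting error only. A linker ligated to the RNA held a run of random bases, and whether the counts used it to remove PCR copies is not stated.

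On the IGF pathway list, 3 genes reached the minimum of 10 reads, all 3 named after their values were seen. The minimum counted replicates 1, 2 and 3 separately, for these genes and for the 268. With their rounded mean plus replicate 5 instead, Igf1r had 20 reads, and Insr and Igf1 had 6 each, fewer than the minimum. The minimum itself selects genes with many CLIP-seq reads, and 39.9% of the 268 genes that reached it had a ratio over 10. Igf1r had 14, 11, 12 and 8 CLIP-seq reads in replicates 1, 2, 3 and 5, a ratio of 20.7 (95% counting interval, computed as for Peg3, 11.8 to 29.7). Insr, the insulin receptor, had 6, 4, 6 and 1 reads and a ratio of 13.3 (4.08 to 24.2), and Igf1 had 3, 3, 2 and 3 reads and a ratio of 8.99 (3.44 to 20.4). The size of these ratios rests on the scale: with all mapped reads as the total, the ratio of Igf1r was 2.28 and that of Insr 1.28, and with TMM across both assays they were 4.83 and 3.08. Igf2r, with 0 CLIP-seq reads, did not reach the minimum, and 3 reads would have given a ratio of 2.63.

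Genes with profiles most like the members were named by the Pearson correlation of log2 CPM over the 6 RNA-seq libraries, which share the difference between genotypes, and are a description of these libraries. Closest to the mean of the 7 tested members were Cyp4f13, Nod1, Klf13, Cnksr3 and Proser2 (r of 0.996 to 0.998). Their log2 fold changes were 0.23 to 0.38. Among those closest to H19 were Gm16286, Elac1, Cwc22 and Dock9 (0.997 to 0.999), and closest to Igf2 were Mex3b, Gm13652, Gm6559, Hcn4 and Wdr86 (0.968 to 0.977). For Mirg, whose profile was added after the data were seen, they were Ifitm7, Nup37, Gm15908, 4930535E02Rik and 4933407L21Rik (0.997 to 0.999), with log2 fold changes of -1.11 to -0.18. Genes like H19 were lowest, and genes like Mirg highest, in wild type replicate 2, as H19 and Mirg themselves were. This follows from how these genes were chosen.

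Promoters of the members were examined for CpG, the dinucleotide that carries DNA methylation in mammals. The RefSeq table (GRCm38.p6, 250 bases before to 50 after each start) held 14 promoters of 8 members, and none of H19 or Cdkn1c. Igf2, Mest and Meg3 had alternative promoters, some of Mest nearly coinciding, and each counted in the median. They had 0 to 26 CpG per promoter with a median of 11.5, against a median of 7.0 over 32851 promoters of all genes. Among members the highest was Plagl1 with 26, followed by an Igf2 promoter with 24, while that of Rian held none and those of Mest held 8 to 17. No methylation was measured.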

How the data were processed

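For each of 6 RNA-seq and 4 CLIP-seq libraries the authors deposited read counts per gene, without normalization. Per the methods, RNA-seq reads were trimmed, aligned to mm10 with STAR and counted with htseq-count on Ensembl v99; how CLIP-seq reads were counted, and whether counting used the strand, is not given in the sources used here. Rows for reads outside genes, ambiguous, not unique or not aligned were left out of library sizes; reads on genes were 28.3% to 47.2% of all in RNA-seq and 0.026% to 0.0521% in CLIP-seq. Names and coordinates came from GENCODE M21 (GRCm38), not the authors' version; 55154 of 55421 genes matched.

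Genes above 1 RPM in at least 3 of 6 RNA-seq libraries were tested with edgeR 4.0.16 (R 4.3.3; TMM, quasi-likelihood test, Benjamini-Hochberg over all genes; called at a fold change over 2 and adjusted p under 0.05). The authors name edgeR but not which test. Alternatives were DESeq2 1.42.0, limma 3.58.1 (voom), edgeR's other tests, other scalings and filters, a replicate block and each library left out. The CLIP-seq ratio was mean RPM over mean wild type RPM, with RPM over reads on genes. Tests were checked on simulated counts. Tables were made with Python 3.11.15.

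Named genes were all members, Mov10, and per list the 4 largest log2 fold changes among tested genes whose genotypes did not overlap; others are named beside them for their known role in the pathway. Likeness used log2(CPM + 0.5), and 1 gene found by it is not reported here. Members and lists were chosen with earlier results of these data known, and support no pattern independently. Igf2r is on 2 lists. Transposable elements and allele-specific reads were not analysed here.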

Additional observations from a re-analysis of the deposited data

How the results depend on the processing

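No member was called under any of the 14 alternatives, and the direction of 6 of the 7 tested members held in all of them. Igf2 reversed to -0.16 on the log2 scale with the Sertoli list as library size and to -0.17 without Mov10-/- replicate 2 (range over left-out libraries -0.17 to 0.31), the cause of which was not tested. The number of genes called depended on the test: against 1 lower and 0 higher, DESeq2 called 988 and 51, the edgeR exact test 1031 and 70, its likelihood ratio test 1104 and 83, no filter on low counts 5 and 5, and limma voom 1 and 1. Leaving out each library gave 0 to 1 lower. Mov10 kept its direction throughout, with log2 fold changes of -2.08 to -1.95 with a library left out; without Mov10-/- replicate 3 or 4 its adjusted p was 0.106 and 0.143. With the replicate number as a block, 145 genes were called lower and 36 higher and no member was (H19 0.88, Cdkn1c 1.38). The genotypes share the numbers 2 and 3 only. Deviations from the genotype mean correlated at r of -0.47 and -0.35 between same-numbered libraries, against -0.26 to 0.46 between the others. With 2 shared numbers, these values cannot decide whether the numbers pair the testes. The number of genes with a CLIP-seq ratio over 10, 107, became 797 with a minimum of 1 read, 18 with all mapped reads as the total, 19 with TMM across both assays and 34 with replicate 5 alone. With 1 CLIP-seq read on all members, their count over 10 says nothing about stability. Only Peg3 had a ratio at a minimum of 1 read (0.77). Depth limits Igf2 (15 to 34 reads per library) and all members in CLIP-seq.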
